A study of Mus musculus with 12 samples.

Results

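The enzymes that turn lanosterol into cholesterol were followed in MIN6 cells, an insulin-secreting line from a mouse beta cell tumour. The set had 8 genes of the 19938 tested: Cyp51, Tm7sf2, Msmo1, Nsdhl, Hsd17b7, Ebp, Sc5d and Dhcr7, in the order of the pathway. Each was found by its symbol in the platform annotation, among probe sets with a single symbol. All 8 were measured, each by 1 probe set, and no filter on low signal was applied. Levels are given as log2 signal of the deposited table, in which 1 unit is a doubling. Signals of different probe sets are not compared with each other.

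The study asked what siRNA against Hes3, which encodes a repressor of transcription, does to gene expression under different culture conditions. Cells were plated at 50000 per well and transfected with Hes3 siRNA at 2 µM or with a scrambled siRNA, and RNA was taken 12 to 24 hours later. Defined Conditions (DC) were serum-free medium at 5% oxygen, with 4 arrays labelled Hes3 siRNA (numbered 1, 2, 5 and 7) and 4 labelled scrambled (1 to 4). Classic Conditions (CC) were medium with serum at 20% oxygen, with 2 arrays for each siRNA (1 and 2). Serum and oxygen changed together between DC and CC, so their effects cannot be told apart. All groups were the same cell line, grown beforehand with serum, and the transfection reagent was common to them. Per the labels, the samples came from a single experiment, so p-values measure only the spread between these samples, which may be technical. Bulk RNA cannot tell fewer expressing cells from less RNA per cell.

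Animal cells make cholesterol by closing squalene into the sterol lanosterol and then trimming and rearranging it in the endoplasmic reticulum. Methyl groups are removed, ring double bonds are reduced or moved, and some of these steps use molecular oxygen and electrons passed on by cytochrome b5 and its reductases. When membrane sterol is low, the SREBP transcription factors are released and switch on genes of this pathway, often together with the factors NF-Y and Sp1.

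Hes3 itself was not lower in the arrays that carry its siRNA label. Its log2 signal was 7.37, 7.36, 7.38 and 7.25 in DC arrays with the Hes3 siRNA label and 7.10, 7.24, 7.19 and 7.22 in the DC scrambled arrays. In CC it was 7.22 and 7.23 in the arrays labelled Hes3 siRNA, against 7.23 and 6.82 in the scrambled ones. The difference was 0.15 ± 0.0767 in DC (standard error; limma adjusted p = 0.114) and 0.20 ± 0.109 in CC (adjusted p = 1.00). Hes3 was dim, at percentile 29.8 of mean signal. In the range of mean signal that holds Hes3, genes had a median log2 fold change of 0.21 between siRNA labels in DC. Of the genes in that range 56.9% were called higher. This probe set therefore cannot show whether the siRNA lowered Hes3. The groups are named by their labels, and a direction given for the siRNA is a direction between labels.

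Array medians lay between 7.78 and 7.96 on the log2 scale, and arrays of the same group correlated with r between 0.989 and 0.998 over all genes. Signals on the 4 DC arrays with the Hes3 siRNA label had the narrowest spread, with an SD over probe sets of 1.76 to 1.80, against 1.82 to 1.85 in the DC scrambled arrays and 1.84 to 1.90 in CC. Most of the 8 markers of MIN6 cells were bright, among them Ins2 and Iapp. Slc2a2 lay at percentile 39.4 of mean signal and Scgn at 69.4. Gcg and Sst, listed for other islet cells, were bright too, at 99.2 and 98.4. The mean log2 signal of the 8 MIN6 markers was 10.74 to 10.85 in DC arrays with the Hes3 siRNA label and 11.02 to 11.10 in the DC scrambled arrays. It was 10.84 to 10.91 in the CC arrays labelled Hes3 siRNA and 10.76 to 10.93 in the CC scrambled arrays. Precision is set by the small number of arrays in each group.

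Each of the 8 genes passed the test in at least 1 comparison, and the promoters of the first 6 in pathway order are shown. They carry matches to motifs of NF-Y and Sp1. Sc5d and Dhcr7 carry such matches too, and their windows are not printed. Each window runs from 250 bases before the annotated start to 50 after it, 5′ to 3′ on the gene's strand, and comes from RefSeq on GRCm38.p6. Capitals mark NF-Y boxes (CCAAT, written ATTGG where it lies on the other strand) and GC boxes, the motif of Sp1 (GGGCGG, or CCGCCC on the other strand). The windows are chr5:4104648-4104947 on the minus strand for Cyp51, chr19:6067801-6068100 minus for Tm7sf2, chr8:64733529-64733828 minus for Msmo1, chrX:72918271-72918570 plus for Nsdhl, chr1:169969156-169969455 minus for Hsd17b7 and chrX:8193463-8193762 minus for Ebp.
Cyp51: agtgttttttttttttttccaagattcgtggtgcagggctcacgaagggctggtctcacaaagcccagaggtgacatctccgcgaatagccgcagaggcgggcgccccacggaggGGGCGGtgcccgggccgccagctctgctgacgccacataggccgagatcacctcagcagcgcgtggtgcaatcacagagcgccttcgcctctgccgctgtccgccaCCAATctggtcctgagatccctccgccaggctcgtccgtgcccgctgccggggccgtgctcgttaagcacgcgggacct
Tm7sf2: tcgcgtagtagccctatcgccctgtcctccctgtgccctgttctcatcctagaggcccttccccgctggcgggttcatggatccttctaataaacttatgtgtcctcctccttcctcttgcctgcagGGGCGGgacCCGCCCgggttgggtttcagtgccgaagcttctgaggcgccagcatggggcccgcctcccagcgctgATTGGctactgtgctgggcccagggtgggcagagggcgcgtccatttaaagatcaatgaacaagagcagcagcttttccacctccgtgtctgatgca
Msmo1: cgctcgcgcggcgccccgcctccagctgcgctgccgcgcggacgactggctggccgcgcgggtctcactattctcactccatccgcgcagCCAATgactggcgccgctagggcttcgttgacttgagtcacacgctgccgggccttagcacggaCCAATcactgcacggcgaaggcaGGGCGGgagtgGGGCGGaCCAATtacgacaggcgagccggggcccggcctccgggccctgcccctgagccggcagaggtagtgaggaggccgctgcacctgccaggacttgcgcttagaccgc
Nsdhl: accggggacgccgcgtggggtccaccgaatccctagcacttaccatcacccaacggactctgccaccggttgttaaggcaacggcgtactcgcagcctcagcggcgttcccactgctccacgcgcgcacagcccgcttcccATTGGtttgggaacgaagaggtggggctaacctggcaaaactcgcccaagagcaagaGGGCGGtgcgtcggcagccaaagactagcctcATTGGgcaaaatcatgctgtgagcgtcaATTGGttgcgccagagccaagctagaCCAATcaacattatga
Hsd17b7: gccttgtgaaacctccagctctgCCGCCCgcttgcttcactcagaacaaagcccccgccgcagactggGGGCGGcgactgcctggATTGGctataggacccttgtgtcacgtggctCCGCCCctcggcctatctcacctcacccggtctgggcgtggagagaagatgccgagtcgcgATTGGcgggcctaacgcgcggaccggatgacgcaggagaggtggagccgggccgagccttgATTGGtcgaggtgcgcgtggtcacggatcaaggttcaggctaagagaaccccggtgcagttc
Ebp: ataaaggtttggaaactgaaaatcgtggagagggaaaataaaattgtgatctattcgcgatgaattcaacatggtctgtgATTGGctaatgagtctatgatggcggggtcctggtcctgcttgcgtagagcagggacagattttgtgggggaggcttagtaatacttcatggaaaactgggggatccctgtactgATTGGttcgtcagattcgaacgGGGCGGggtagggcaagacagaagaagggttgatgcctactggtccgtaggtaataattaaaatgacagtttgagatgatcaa

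The 3 motifs were searched on both strands in all 32851 windows of the table, and the 8 genes had 10 windows, since Dhcr7 has 3 annotated starts. An NF-Y box was found in 8 of the 10 windows, against 37.4% of all windows. A GC box was found in 9 of the 10, against 35.7% of all windows. NF-Y and GC boxes can share letters at their ends, but no pair did so in these windows. In Msmo1 a GC box began 62 bases before the start and an NF-Y box 55 bases before it, so that a single base lay between them. Nsdhl had 4 NF-Y boxes, Msmo1 and Hsd17b7 3 each, Ebp 2, and Cyp51, Tm7sf2 and Sc5d 1 each. One spelling of the sterol regulatory element, TCACNCCAC, was in 1.24% of all windows and in 0 of the 10. That element tolerates other letters, and a match or its absence is a description of these letters in these windows.

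**Figure D1:**
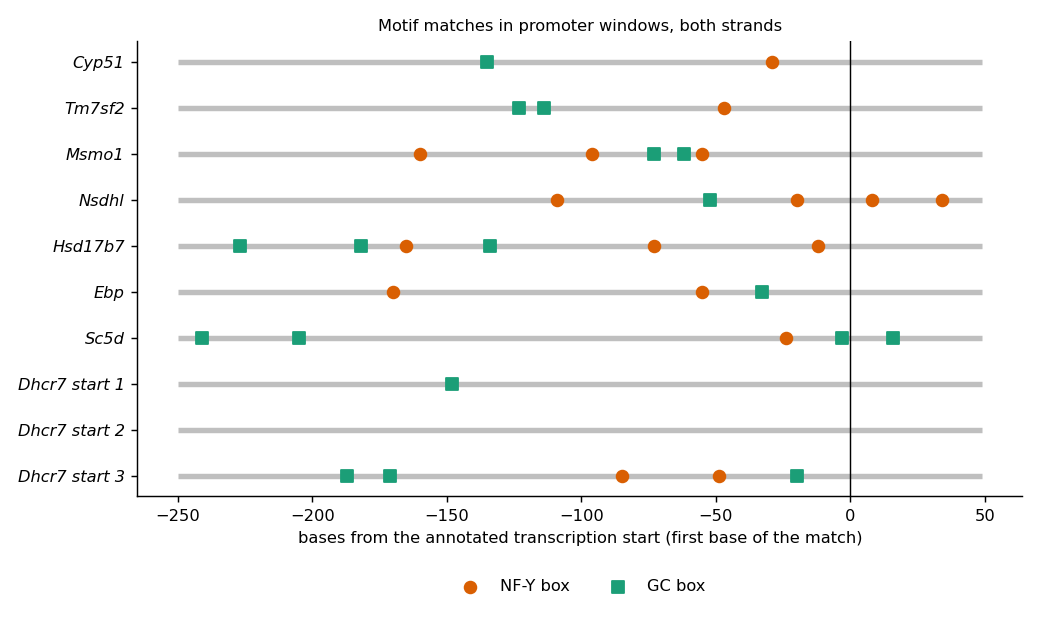
Positions of motif matches in the 10 promoter windows of the 8 genes; the horizontal axis is the distance in bases from the annotated start to the first base of the match, circles are NF-Y boxes and squares are GC boxes. Of the 10 windows, 8 hold an NF-Y box and 9 a GC box, and the second start of Dhcr7 holds neither.

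Cyp51, the cytochrome P450 that removes a methyl group from lanosterol, opens the sequence. Its log2 signal was 10.14, 10.48, 10.08 and 10.33 in DC arrays with the Hes3 siRNA label, against 10.69, 10.54, 10.56 and 10.51 in the DC scrambled arrays. In CC it was 10.25 and 10.20 in the arrays labelled Hes3 siRNA and 9.78 and 10.26 in the scrambled ones. All 4 DC scrambled arrays lay above every other array, and the other groups overlapped each other. The pair of CC scrambled arrays stood 0.48 apart, the first being the lowest of all 12. In order of the means the DC scrambled group (10.58 ± 0.0806, SD, n = 4) was followed by the DC group labelled Hes3 siRNA (10.26 ± 0.179, n = 4), the CC group labelled Hes3 siRNA (10.22 ± 0.0399, n = 2) and the CC scrambled group (10.02 ± 0.338, n = 2), and neighbours among the last 3 did not differ beyond their spread.

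Tm7sf2, a reductase of the double bond that Cyp51 leaves behind, had log2 signals of 9.97, 9.97, 9.84 and 10.02 in DC arrays with the Hes3 siRNA label and 9.92, 9.94, 10.02 and 10.06 in the DC scrambled arrays. The CC arrays gave 9.14 and 9.15 with the Hes3 siRNA label and 9.15 and 9.17 with the scrambled siRNA. All 8 DC arrays were above all 4 CC arrays, and the DC groups overlapped. Dhcr7, the reductase that makes cholesterol from its last precursor in this branch and is mutated in Smith-Lemli-Opitz syndrome in humans, had the same order of groups. Its log2 signals were 10.33, 10.33, 10.21 and 10.12 in DC arrays with the Hes3 siRNA label and 10.24, 10.31, 10.31 and 10.30 in the DC scrambled arrays. In CC they were 9.51 and 9.46 in the arrays labelled Hes3 siRNA, against 9.46 and 9.56 in the scrambled ones. Here too every DC array exceeded every CC array, while the siRNA groups within DC overlapped, as did those within CC. Group means of Tm7sf2 were 9.95 ± 0.0805 for DC with the Hes3 siRNA label, 9.98 ± 0.0639 for DC scrambled, 9.14 ± 0.00264 for CC with the Hes3 siRNA label and 9.16 ± 0.0138 for CC scrambled (SD, n = 4, 4, 2 and 2). Those of Dhcr7 were 10.25 ± 0.100, 10.29 ± 0.0334, 9.49 ± 0.0399 and 9.51 ± 0.0647 in the same groups.

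Msmo1, Nsdhl and Hsd17b7 act in turn to take off the remaining pair of methyl groups: Msmo1 oxidises the methyl group with molecular oxygen, Nsdhl removes it as carbon dioxide, and Hsd17b7 reduces the ketone that is left. Msmo1 had log2 signals of 11.02, 11.26, 10.75 and 11.10 in DC arrays with the Hes3 siRNA label and 11.48, 11.36, 11.36 and 11.57 in the DC scrambled arrays. In CC it had 10.85 and 10.70 with the Hes3 siRNA label and 10.44 and 10.73 with the scrambled siRNA. The DC scrambled arrays were the highest 4 of the 12. In the DC group labelled Hes3 siRNA, array 5 fell among the CC arrays with that label and the other arrays lay above them. Means were 11.03 ± 0.216 for DC with the Hes3 siRNA label, 11.44 ± 0.104 for DC scrambled, 10.77 ± 0.108 for CC with the Hes3 siRNA label and 10.58 ± 0.207 for CC scrambled (SD, n = 4, 4, 2 and 2).

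Nsdhl had 9.96, 10.21, 9.87 and 10.13 in DC arrays with the Hes3 siRNA label and 10.58, 10.49, 10.53 and 10.54 in the DC scrambled arrays. In CC it had 9.35 and 9.30 with the Hes3 siRNA label and 8.83 and 9.36 with the scrambled siRNA. The groups formed steps without overlap, DC scrambled above DC with the Hes3 siRNA label and both above CC, where the siRNA groups overlapped. Its means were 10.04 ± 0.154, 10.53 ± 0.0349, 9.32 ± 0.0344 and 9.10 ± 0.372 in the groups in the order just given for Msmo1. Hsd17b7 had 9.50, 9.53, 8.88 and 9.23 in DC arrays with the Hes3 siRNA label and 9.81, 10.01, 10.01 and 9.94 in the DC scrambled arrays. Its CC values were 8.80 and 8.73 with the Hes3 siRNA label and 8.60 and 8.94 with the scrambled siRNA. It showed similar steps, except that array 5 of the DC group labelled Hes3 siRNA lay below the higher CC scrambled array. That group had the widest spread of the gene, with a mean of 9.29 ± 0.304 (SD, n = 4), against 9.94 ± 0.0931 in the DC scrambled group (n = 4).

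Ebp, the isomerase that moves a ring double bond and was first described as the emopamil-binding protein, ran in another order. Its log2 signal was 10.16, 10.40, 10.02 and 10.36 in DC arrays with the Hes3 siRNA label and 10.78, 10.65, 10.81 and 10.76 in the DC scrambled arrays. In CC it was 11.08 and 10.86 with the Hes3 siRNA label and 11.00 and 11.12 with the scrambled siRNA. All CC arrays were above all DC arrays, and within DC the arrays labelled Hes3 siRNA were all below the scrambled ones. Ebp was the single gene of the 8 whose highest group mean was in CC, with 11.06 ± 0.0787 in the scrambled arrays (SD, n = 2).

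Sc5d, the desaturase that puts a double bond into the ring system using molecular oxygen, had 10.00, 10.23, 9.99 and 10.15 in DC arrays with the Hes3 siRNA label and 10.42, 10.41, 10.42 and 10.38 in the DC scrambled arrays. The CC values were 10.17 and 10.05 with the Hes3 siRNA label and 10.07 and 10.16 with the scrambled siRNA. The 4 DC scrambled arrays were close together and above all others, and the remaining 3 groups overlapped, with means of 10.09 ± 0.116 (n = 4), 10.11 ± 0.0879 (n = 2) and 10.11 ± 0.0640 (n = 2).

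Single arrays moved several of the genes together. In the DC group labelled Hes3 siRNA, array 5 was the lowest for 7 of the 8 genes, the exception being Dhcr7, and array 2 was the highest for 6. In the CC scrambled group, array 1 was the lowest for all 8.

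**Figure D2:**
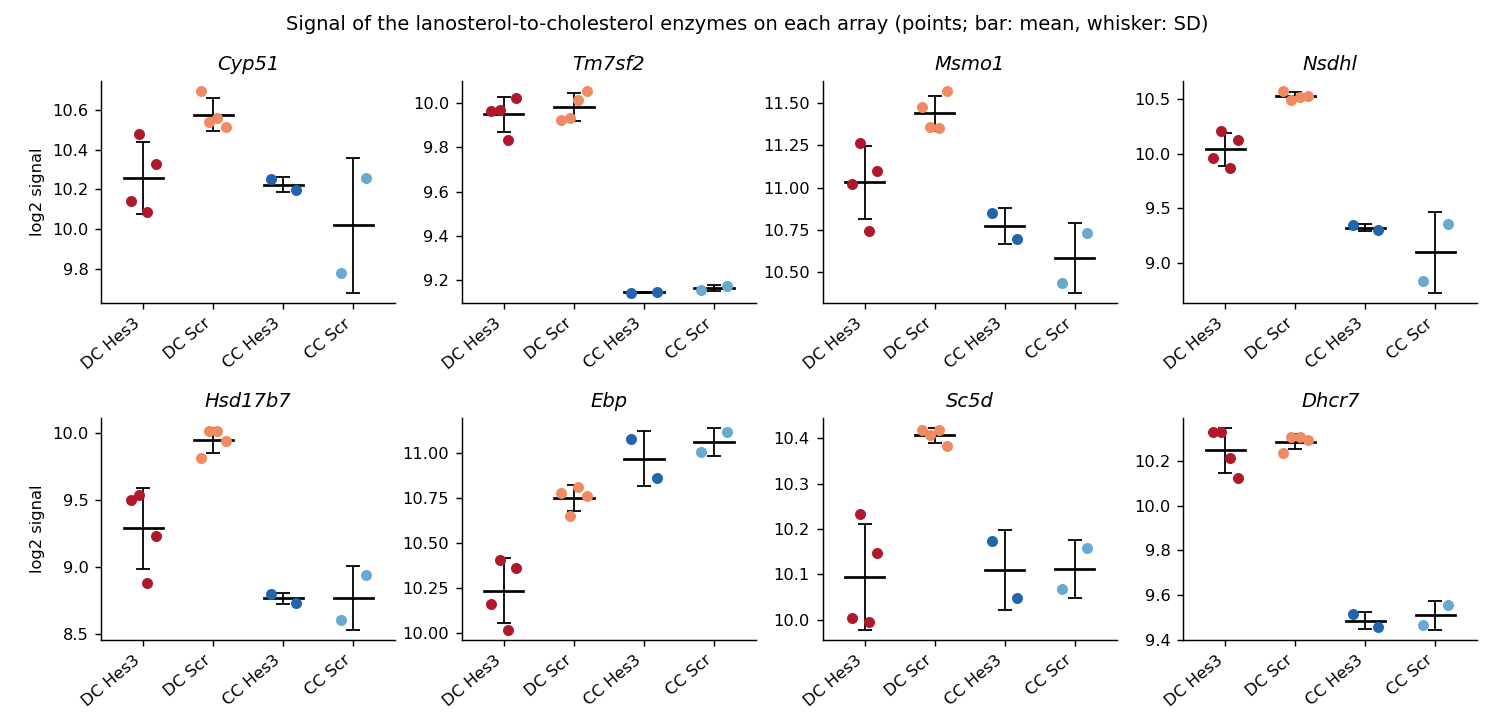
Log2 signal (vertical axes, one scale per gene) of the 8 enzymes on each of the 12 arrays, by group; points are arrays, bars the mean and whiskers the SD (n = 4, 4, 2 and 2). Tm7sf2 and Dhcr7 separate DC from CC with siRNA groups that overlap within DC, Ebp is highest in CC, and the other genes are highest in the DC scrambled arrays.

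DC was first set against CC with the scrambled siRNA. Of the 8 enzymes 7 rose and none fell, with Nsdhl 2.71-fold and Hsd17b7 2.26-fold higher in DC. Msmo1 (1.81-fold), Tm7sf2 (1.76-fold) and Dhcr7 (1.71-fold) followed, then Cyp51 (1.47-fold) and Sc5d (1.23-fold). Ebp was 1.24-fold lower in DC, which did not pass the threshold. All 4 DC arrays were above both CC arrays for the same 7 genes.

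In limma the log2 fold change was 1.44 ± 0.118 for Nsdhl (standard error; adjusted p = 2.59e-06 over all 19938 genes) and 1.17 ± 0.145 for Hsd17b7 (adjusted p = 9.79e-05). It was 0.86 ± 0.121 for Msmo1 (0.000285), 0.82 ± 0.0719 for Tm7sf2 (4.39e-06) and 0.78 ± 0.0743 for Dhcr7 (9.43e-06), with limma adjusted p in parentheses. Cyp51 had 0.56 ± 0.122 (limma adjusted p = 0.00816) and Sc5d 0.29 ± 0.0787 (limma adjusted p = 0.0278). Ebp had -0.31 ± 0.102 (limma adjusted p = 0.0764), with a 95% interval of -0.53 to -0.09. The called genes thus all pointed upward and Ebp pointed the other way. Among all genes 3.09% were called higher and 5.45% lower in this comparison, and 13.8% had all DC arrays above all CC arrays. The 8 enzymes all lay in the brightest 25% of genes by mean signal, where 6.92% were called higher, 11.9% lower, and the median log2 fold change was -0.04. The median over the 8 enzymes was 0.80, against 0.02 over all genes.

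The calls of Sc5d and Cyp51 rested on single arrays. Without CC scrambled array 1 neither passed, with log2 fold changes of 0.25 for Sc5d and 0.32 for Cyp51, a count of 5 genes. Sc5d also missed the threshold without CC scrambled array 2 (0.34) or without DC scrambled array 1 (0.29), 2 (0.29), 3 (0.29) or 4 (0.30). Sc5d missed it as well with arrays centred on their median (0.29). Ebp, at the same -0.31, passed as lower when only the 6 arrays compared were fitted, without DC array 5 labelled Hes3 siRNA, and without DC arrays 1 and 5 with that label.

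With the Hes3 siRNA label the same culture comparison uses other arrays. Of the 8 enzymes 4 were higher in DC: Tm7sf2 (1.75-fold), Dhcr7 (1.70-fold), Nsdhl (1.64-fold) and Hsd17b7 (1.44-fold). All 4 were also among the 7 called with the scrambled siRNA. Ebp fell, 1.66-fold lower in DC. Cyp51, Msmo1 and Sc5d did not pass.

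The log2 fold changes with the Hes3 siRNA label were 0.81 ± 0.0719 for Tm7sf2 (limma adjusted p = 2.52e-06) and 0.76 ± 0.0743 for Dhcr7 (limma adjusted p = 5.05e-06). Nsdhl had 0.72 ± 0.118 (limma adjusted p = 0.000423), Hsd17b7 0.52 ± 0.145 (0.0127) and Ebp -0.73 ± 0.102 (0.000107). Msmo1 had 0.26 ± 0.121 (limma adjusted p = 0.0932), Cyp51 0.03 with a 95% interval of -0.22 to 0.29, and Sc5d -0.02 with an interval of -0.18 to 0.15. Both reductases kept nearly the same size as with the scrambled siRNA, and these comparisons share no array. The background was much higher here: 21.2% of all genes were called higher, 18.8% lower, and 38.4% had all DC arrays above all CC arrays. All DC arrays were above the CC arrays for 4 of the 8 enzymes, near that share. In the brightest 25% of genes 9.15% were called higher, 44.5% lower, and the median log2 fold change was -0.19. These backgrounds rest on few arrays: 977 genes were called higher and 2433 lower without CC array 1 with this label, 620 and 1737 without CC array 2, 2777 and 3367 without DC array 1 and 2528 and 3158 without DC array 5, against 4231 and 3755 with all arrays. Leaving out CC array 1 or 2 with this label ended the call of Hsd17b7 (0.55 and 0.49), and leaving out DC array 5 made Msmo1 pass at 0.35.

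**Figure D3:**
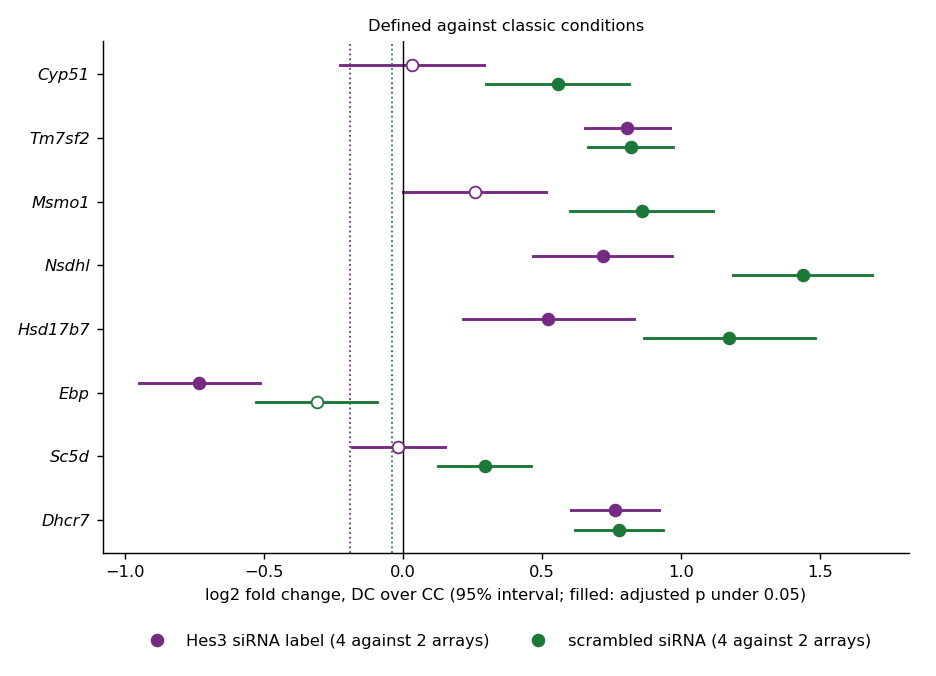
Log2 fold change of DC over CC for each enzyme with its 95% interval, with the Hes3 siRNA label above and the scrambled siRNA below; filled points have a limma adjusted p under 0.05, open points do not, and dotted lines are the medians of the brightest 25% of genes (-0.19 and -0.04). Nsdhl, Hsd17b7, Tm7sf2 and Dhcr7 are filled and above 0 with both siRNAs, and Ebp is below 0 with both.

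Within DC, the arrays labelled Hes3 siRNA were set against the scrambled ones. Hsd17b7 was 1.58-fold lower with the Hes3 siRNA label, Ebp 1.43-fold, Nsdhl 1.41-fold, Msmo1 1.33-fold, Cyp51 1.25-fold and Sc5d 1.24-fold. These 6 fell and none of the 8 rose. Tm7sf2 and Dhcr7, which reduce double bonds, did not pass in either direction. For each of the 6 all arrays labelled Hes3 siRNA were below all scrambled arrays.

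The log2 fold change was -0.66 ± 0.118 for Hsd17b7 (limma adjusted p = 0.00302), -0.51 ± 0.0833 for Ebp (0.00227), -0.49 ± 0.0963 for Nsdhl (0.0036) and -0.41 ± 0.0985 for Msmo1 (0.00689). It was -0.32 ± 0.0992 for Cyp51 (limma adjusted p = 0.0195) and -0.31 ± 0.0643 for Sc5d (0.00408). Tm7sf2 had -0.03 with a 95% interval of -0.16 to 0.09, and Dhcr7 -0.04 with an interval of -0.17 to 0.09, and both turned positive under quantile and cyclic loess normalization. No test set the enzymes that passed against the 2 that did not. Many genes differed in this comparison: 18.3% of all were called lower, 28.9% higher, and 17.0% had all arrays labelled Hes3 siRNA below all scrambled arrays. Bright genes were shifted downward, and in the brightest 25% of genes 40.9% were called lower, 2.39% higher, with a median log2 fold change of -0.15. The median over the 8 enzymes was -0.36, against 0.06 over all genes.

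Of the 6 calls, 2 (Hsd17b7 and Ebp) held when DC arrays 1 and 5 labelled Hes3 siRNA were left out together, and 4 (Nsdhl and Sc5d besides) held after quantile or cyclic loess normalization of the 12 arrays. With a minimum of 1.5-fold 1 remained, Hsd17b7. The call of Cyp51 was lost without DC array 1 labelled Hes3 siRNA (-0.28), array 5 (-0.26) or DC scrambled array 1 (-0.28). Over all genes the split of calls moved with the scale. It was 5769 higher and 3639 lower as deposited, 2387 and 2320 after quantile normalization, 3165 and 5173 with arrays centred on their median, and 1596 and 2515 after cyclic loess. It also moved with single arrays, to 3355 higher and 2709 lower without DC array 1 labelled Hes3 siRNA, 3404 and 2477 without array 5 and 3217 and 2537 without DC scrambled array 1. Without DC arrays 1 and 5 labelled Hes3 siRNA it was 49 and 282. For the culture comparison with the Hes3 siRNA label the split was 4231 higher and 3755 lower as deposited, 2205 and 4385 with centred arrays and 2249 and 2957 after cyclic loess. With the scrambled siRNA it was 616 higher and 1086 lower as deposited and 826 and 907 after quantile normalization, 710 and 1654 without CC scrambled array 1 and 353 and 389 without CC scrambled array 2.

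Markers of other cell types moved with the siRNA label in DC. All 4 acinar and all 4 fibroblast genes were higher with the Hes3 siRNA label, as were 3 of 4 macrophage and endothelium genes and 3 of 5 genes of other islet cells. Most of these genes were dim: the acinar genes lay at percentiles 21.8 to 52.9 of mean signal, the fibroblast genes at 42.7 to 64.7, and Csf1r, Pecam1 and Tek at 20.7 to 24.3. Of the other islet genes called, Hhex lay at 15.3, Ghrl at 63.7 and Ppy at 65.0. Gcg and Sst, which were not called, lay at 99.2 and 98.4. Among all genes of the dimmest 25% and the next 25%, 36.9% and 56.9% were called higher in this comparison, with median log2 fold changes of 0.15 and 0.21. Cela2a, Col1a1, Col1a2, Ghrl and Ppy lay in the 25% above these. There 19.6% of genes were called higher and 24.7% lower, with a median of -0.03. Among 8 MIN6 genes 4 were lower and 1 higher, the latter being Slc2a2 at percentile 39.4. Most of the 8 lay in the brightest 25% of genes, where 40.9% were called lower and 2.39% higher. The count of 4 is near that share. The acinar mean log2 signal was 7.34 to 7.62 in DC arrays with the Hes3 siRNA label, against 7.10 to 7.27 in the DC scrambled arrays. The fibroblast mean was 8.42 to 8.71, against 8.12 to 8.25. Macrophage and endothelium genes had means of 7.46 to 7.57 with the Hes3 siRNA label and 7.31 to 7.38 with the scrambled siRNA, and genes of other islet cells 9.43 to 9.58 and 9.23 to 9.33. Their part in the fall of the 6 enzymes was not tested.

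In CC, the siRNA labels gave no call. None of the 8 enzymes passed, and of all genes 0 (0.0%) passed the adjusted threshold in limma, also with trended and robust variances. At an unadjusted p under 0.05 there were 415 genes, 2.08% of all, and 0 of the 8 enzymes. The log2 fold change was 0.23 ± 0.136 for Nsdhl, 0.21 ± 0.140 for Cyp51 and 0.19 ± 0.139 for Msmo1, and it lay between -0.09 and -0.0018 for the other 5. With 2 arrays a side the 95% intervals were wide, from -0.06 to 0.52 for Nsdhl and from -0.36 to 0.35 for Hsd17b7.

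The difference between the siRNA contrasts, DC minus CC, is the test of whether the siRNA label acted differently in the culture conditions, and it is also the difference between both culture comparisons. It called none of the 8 enzymes and 0 of all genes (0.0%), also with trended and robust variances. At an unadjusted p under 0.05, 6 of the 8 were lower, where 17.4% of all genes passed in either direction and 10.2% were lower. These were Nsdhl (-0.72 ± 0.167, limma adjusted p = 0.177), Hsd17b7 (-0.65 ± 0.205, 0.198), Msmo1 (-0.60 ± 0.171, 0.181), Cyp51 (-0.52 ± 0.172, 0.201), Ebp (-0.42 ± 0.144, 0.209) and Sc5d (-0.31 ± 0.111, 0.218). Tm7sf2 and Dhcr7 each had -0.01, with 95% intervals of -0.23 to 0.20 and -0.24 to 0.21. Without CC scrambled array 2, which leaves 1 array in that group, Cyp51, Msmo1, Nsdhl and Hsd17b7 passed, with -0.76, -0.75, -0.98 and -0.82. In that fit 491 of all genes were called higher and 1565 lower. The contrasts in this and the preceding paragraphs share arrays, so they are given side by side and not as support for each other.

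**Figure D4:**
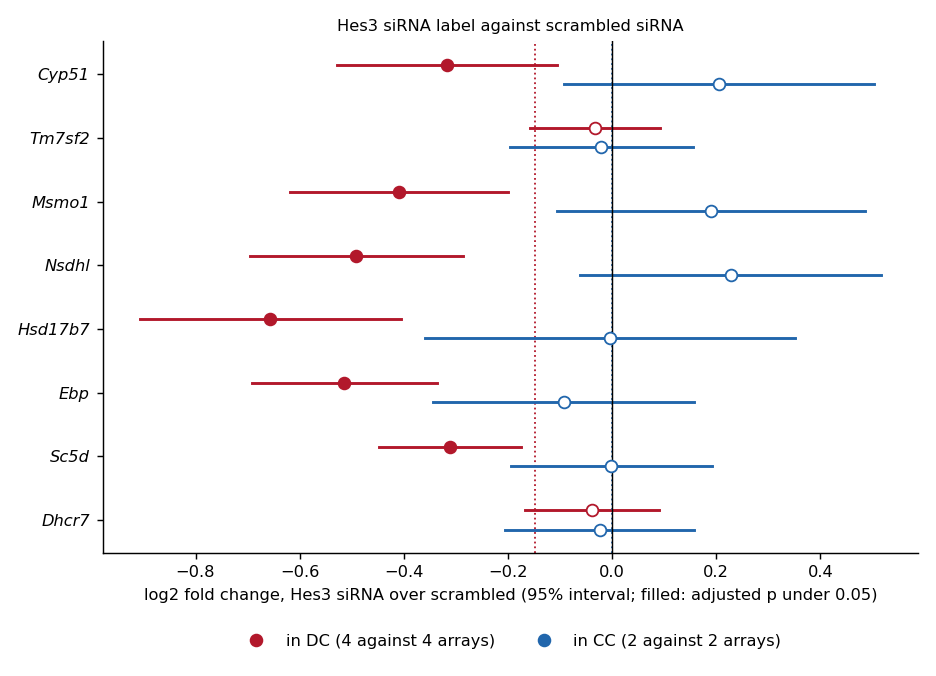
Log2 fold change of the Hes3 siRNA label over scrambled siRNA for each enzyme with its 95% interval, in DC above (4 against 4 arrays) and in CC below (2 against 2); filled points have a limma adjusted p under 0.05, open points do not, and dotted lines are the medians of the brightest 25% of genes. In DC 6 genes are filled and below 0, Tm7sf2 and Dhcr7 lie near 0, and no point is filled in CC.

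The genes that make lanosterol were followed beside the 8 enzymes. Of 11 listed mevalonate and squalene genes 9 were measured. All 9 were higher in DC with the scrambled siRNA, with a median log2 fold change of 1.04, and 7 were higher with the Hes3 siRNA label, with a median of 0.48, where 3.09% and 21.2% of all genes were higher. Hmgcs1, which makes the precursor of mevalonate, led with 1.93 ± 0.143 under the scrambled siRNA (limma adjusted p = 1.26e-06) and 1.65 ± 0.143 under the Hes3 siRNA label. Lss, the cyclase that forms lanosterol itself, had 1.40 ± 0.0899 with the scrambled siRNA and 1.17 ± 0.0899 with the Hes3 siRNA label. Idi1, the isomerase of isopentenyl diphosphate, had 1.51 ± 0.197 with the scrambled siRNA and 0.33 ± 0.197, not called, with the Hes3 siRNA label. Within DC 4 of the 9 were lower with the Hes3 siRNA label and none higher, the median being -0.18: Idi1 (-0.83 ± 0.161), Hmgcs1 (-0.35 ± 0.117), Fdft1, the squalene synthase (-0.32 ± 0.100), and Lss (-0.23 ± 0.0734). That count is near the 40.9% called lower in the brightest 25% of genes, whose median was -0.15, and 18.3% of all genes were lower.

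Other late sterol genes and the electron donors of the oxygenases were counted apart. Erg28, a scaffold of the methyl-removing enzymes known from yeast, rose in DC with the scrambled siRNA (0.32 ± 0.0831) and was not called with the Hes3 siRNA label (-0.03). Within DC it was lower with the Hes3 siRNA label (-0.22 ± 0.0679). Lbr, a nuclear envelope protein with the same reductase activity as Tm7sf2, did not pass in any of these 3 comparisons. Of 4 electron donors measured none rose in any comparison. Of these, 1 was lower in DC with the scrambled siRNA, 3 with the Hes3 siRNA label, and 2 between siRNA labels within DC. Of all genes 5.45%, 18.8% and 18.3% were lower in these comparisons, and 3.09%, 21.2% and 28.9% higher. Among the brightest genes, as set above, 11.9%, 44.5% and 40.9% were lower, and 6.92%, 9.15% and 2.39% higher. Of the donors, Cyb5b and Cyb5r3 lay in that range, Cyb5a in the 25% of genes below it and Cyb5r1 near the border. In the 25% below, smaller shares were lower in each comparison. There 24.6% were lower in DC with the Hes3 siRNA label and 24.7% between siRNA labels within DC, and 16.9% and 19.6% higher. No test set the 4 genes against these shares. Cyb5r1, a cytochrome b5 reductase, was lower in DC with the scrambled siRNA (-0.33 ± 0.0683) and with the Hes3 siRNA label (-0.35 ± 0.0683). Cyb5a, cytochrome b5 of the endoplasmic reticulum, and Cyb5b, the form of the outer mitochondrial membrane, fell in DC with the Hes3 siRNA label (-0.78 ± 0.161 and -0.42 ± 0.113), and within DC both were lower with that label (-0.50 ± 0.132 and -0.43 ± 0.0921).

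Among 9 measured genes of sterol control and uptake, 4 rose and 1 fell in DC with the scrambled siRNA, and the same numbers did so with the Hes3 siRNA label. Of all genes 3.09% rose and 5.45% fell with the scrambled siRNA, and 21.2% and 18.8% with the Hes3 siRNA label. Insig1, which holds SREBP precursors in the endoplasmic reticulum and is itself an SREBP target, had 1.00 ± 0.0796 with the scrambled siRNA and 0.90 ± 0.0796 with the Hes3 siRNA label. Srebf2, which encodes the SREBP that drives cholesterol genes, had 0.85 ± 0.0863 with the scrambled siRNA and 0.67 ± 0.0863 with the Hes3 siRNA label. Srebf1, its paralog for fatty acid genes, had 0.86 and 0.82. Stard4, a carrier of cholesterol between membranes, had 0.95 and 0.52. Insig2 was the gene that fell, with -0.69 ± 0.0919 and -0.87 ± 0.0919. Within DC, Stard4 (-0.23 ± 0.0652) and Srebf2 (-0.18 ± 0.0705) were lower with the Hes3 siRNA label and the other 7 were not called, a count near the 18.3% of all genes called lower. Some listed genes were not analysed here.

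**Figure D5:**
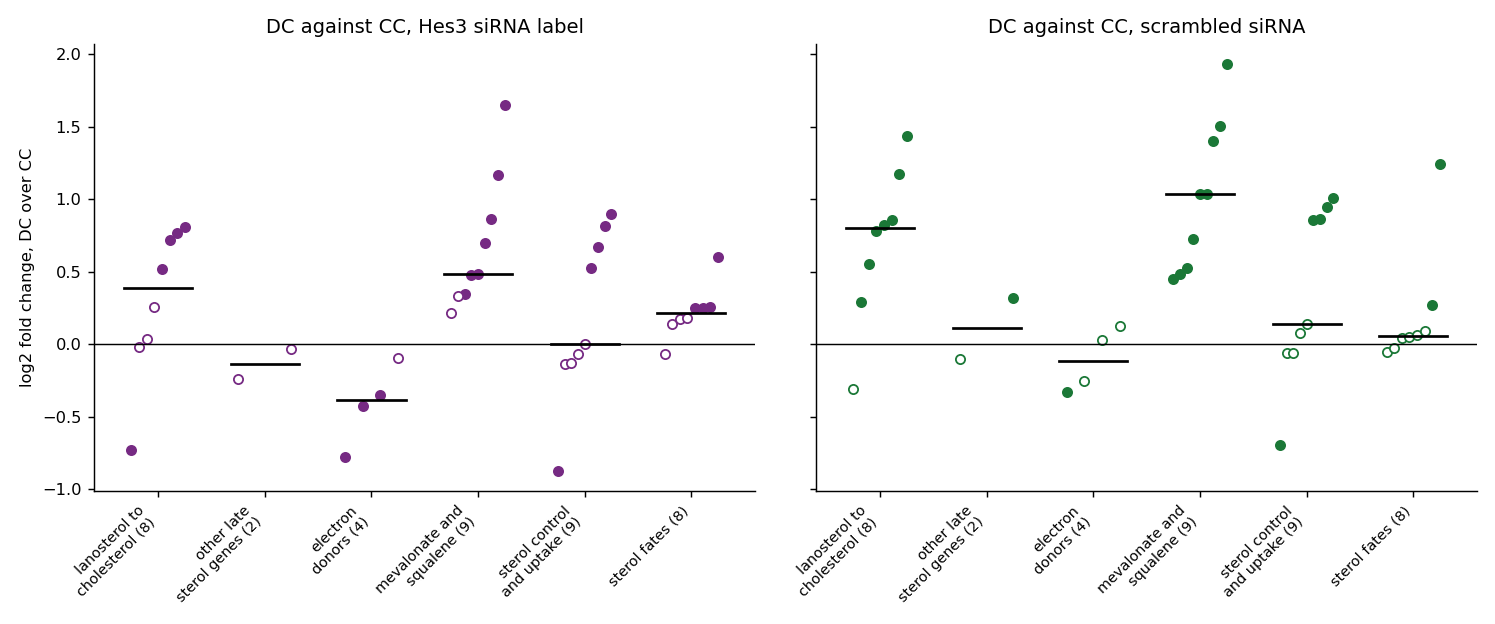
Log2 fold change of DC over CC for the genes of each list (number measured in parentheses), with the Hes3 siRNA label on the left and the scrambled siRNA on the right; points are genes, filled where the limma adjusted p is under 0.05, and bars are medians. The mevalonate and squalene genes and the lanosterol-to-cholesterol enzymes have the highest medians in both panels, 0.48 and 0.39 on the left and 1.04 and 0.80 on the right.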

How the data were processed

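The deposited table holds 1 value for each of 35556 probe sets on 12 arrays. The authors' unit is not stated in the labels, and the deposited values are read as log2 signal from their range (3.94 to 14.4). Their background correction, summarization and normalization are not given in the sources used here. RNA (250 ng) was labelled with a whole-transcript expression kit, per the labels' protocols. All columns were used (0 left out).

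Probe sets with exactly 1 symbol in the platform annotation numbered 21789, while 1621 had several and 12146 none. Of the first, 21698 were found in the RefSeq gene table by Entrez ID, and 0 symbols changed. The probe set with the highest mean stood for a gene, which gave 19938 genes. Limma 3.58.1 in R 4.3.3 (lmFit, eBayes) was fitted to 4 group means over the 12 arrays, with 8 residual and 7.62 prior degrees of freedom, for 5 contrasts. P-values are two-sided, with Benjamini-Hochberg adjustment over the genes of a contrast, and values under 0.05 were called at any fold. Fold changes carry the model's standard error, and intervals are 95%. The scripts were tested on simulated data with known changes.

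The 8 enzymes, the lists and the alternatives were chosen with earlier results of these data known. Named genes were the 8 enzymes, up to 4 genes of each sterol list by size of change in each comparison, with their values in the others, the 8 genes most alike in profile, Hes3 and cell type markers. Alternatives were quantile, median and cyclic loess scaling, leaving out dim genes (under the 40th percentile), trended robust variances, fits on the arrays compared, averaged probe sets, a 1.5-fold minimum, a replicate block, and leaving out arrays. Deviations of same-numbered arrays from their group means correlated between -0.44 and 0.25, so the numbers were not taken as pairs.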

Additional observations from a re-analysis of the deposited data

Results flagged for a closer look

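In groups of 4 arrays, an array was looked at again where its gap to the nearest other array was large against the group's whole range. Of 18 groups looked at, 2 met this, and chance gives about 1 in 20. Dhcr7 in DC scrambled array 1 had a log2 signal of 10.24, with the nearest other array at 10.30 and a gap of 0.830 of the range. Hes3 in DC array 7 labelled Hes3 siRNA had a log2 signal of 7.25, with the nearest at 7.36 and a gap of 0.882 of the range.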

How the results depend on the processing

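The counts of enzymes called in both culture comparisons and in CC stayed within 1.5 times of the reported counts under every alternative fitted. In DC, the 6 calls between siRNA labels became 1 with a minimum of 1.5-fold, 2 without DC arrays 1 and 5 labelled Hes3 siRNA, and 0 with a replicate block. The block leaves fewer degrees of freedom. Numbers 3, 4, 5 and 7 each occur on a single array, so with the block this comparison rests on DC arrays 1 and 2 of each label. The same fit called 6 enzymes in the culture comparison with the scrambled siRNA and 5 with the Hes3 siRNA label. Why the calls in DC were lost was not tested. The difference of the siRNA contrasts called 0 to 4 enzymes with arrays left out in turn. The turns of sign all concern log2 fold changes that were not called as deposited. In CC, Hsd17b7 turned to 0.025 under quantile and 0.018 under cyclic loess scaling, and Sc5d to 0.0029 under cyclic loess. In DC, Tm7sf2 turned to 0.13 (quantile), 0.098 (cyclic loess), 0.040 (replicate block) and 0.016 (without DC arrays 1 and 5 labelled Hes3 siRNA), and Dhcr7 to 0.11 (quantile), 0.11 (cyclic loess) and 0.057 (replicate block). For the difference of contrasts, Tm7sf2 turned to 0.13, 0.10, 0.061 and 0.036 under the same 4 settings, and Dhcr7 to 0.12, 0.12 and 0.081 under quantile, cyclic loess and replicate block. In the culture comparison with the Hes3 siRNA label, Cyp51 turned to -0.035 with arrays centred on their median, and Sc5d to 0.19 (quantile, where it passed the threshold), 0.18 (cyclic loess), 0.0079 (replicate block) and 0.080 (without arrays 1 and 5). The causes were not tested. With single arrays left out, values spanned 0 in CC for Cyp51 (-0.034 to 0.44), Nsdhl (-0.035 to 0.49), Hsd17b7 (-0.17 to 0.16), Ebp (-0.20 to 0.016), Sc5d (-0.064 to 0.060) and Dhcr7 (-0.070 to 0.022). They did so in DC for Tm7sf2 (-0.058 to 0.0055) and Dhcr7 (-0.066 to 0.0033), in the difference for Tm7sf2 (-0.037 to 0.026) and Dhcr7 (-0.060 to 0.031), and in the culture comparison with the Hes3 siRNA label for Cyp51 (-0.039 to 0.092) and Sc5d (-0.078 to 0.046). Where a group keeps 1 array, it is assumed to vary like the others.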

Other observations

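Genes that handle finished cholesterol were listed apart from those that make it, and 8 of 11 were measured. Abca1, which exports cholesterol to apolipoproteins, was higher in DC with the scrambled siRNA (1.24 ± 0.188, limma adjusted p = 0.000541) and with the Hes3 siRNA label (0.60 ± 0.188, 0.0224). Within DC it was lower with the Hes3 siRNA label (-0.72 ± 0.153, limma adjusted p = 0.00448). Mylip, a ubiquitin ligase induced by sterols, rose in DC in both culture comparisons (0.27 ± 0.0768 with the scrambled siRNA and 0.25 ± 0.0768 with the Hes3 siRNA label). Cyp27a1 and Ch25h, which make oxysterols, were higher within DC with the Hes3 siRNA label (0.36 ± 0.0723 and 0.23 ± 0.0683). Of the 8 genes 3 rose and 1 fell in that comparison, where 28.9% and 18.3% of all genes did. The 3 that rose, Cyp27a1, Ch25h and Cyp7b1, were dim. Their mean log2 signals were 7.49, 6.38 and 5.74 in DC with the Hes3 siRNA label and 7.13, 6.14 and 5.55 in DC scrambled. Among all genes of the dimmest 25% and the next 25%, 36.9% and 56.9% were called higher in that comparison.

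The genes whose 12 array values were most like the mean profile of the 8 enzymes were Igsf1 (Pearson r = 0.975), Clasp2 (0.973), Rps6ka5 (0.970), Sema3a (0.969), Idi1 (0.965), Lyplal1 (0.963), Phka2 (0.959) and Neto1 (0.958). The arrays fall into 4 groups, so these correlations follow mostly the group means, and they are given as a description over 12 arrays that share 1 experiment. Among the enzymes, the correlation with the mean of the other 7 ran from 0.785 for Tm7sf2 to 0.976 for Msmo1, except in Ebp, where it was -0.338.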
